A study of Mus musculus with 9 samples.

Results

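The collagen genes of mouse gastrocnemius, a calf muscle, were followed through removal of the testes and replacement of testosterone. A gene was taken as a collagen gene where its symbol was Col, 1 or 2 digits, a, and 1 digit or more, and it was represented by its brightest probe set listed to that gene alone. This gave 42 collagen genes of 18193 genes on the array, which were grouped by the structure their chains build into 11 fibrillar, 8 basement membrane, 5 type VI and 18 other members. The muscles came from outbred CD-1 mice in young adulthood, 14 days after surgery and without fasting. Sham mice were operated on without loss of the testes and carried a placebo pellet, castration mice lost the testes and carried a placebo pellet, and testosterone mice lost the testes and carried a pellet of 2.5 mg testosterone made to release over 60 days. There were 3 arrays for a group, on an Affymetrix platform, and the RNA of 3 mice went into every one of them as a pool, so that 27 of the 36 mice in the study were measured. An SD below is the spread between such pools and not between animals. In the labels' protocols the muscles were cleared of fat and of connective tissue outside the muscle before RNA was made.

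Collagens are the main proteins of the extracellular matrix. In muscle, types I, III and V assemble into the fibrils of the connective tissue sheaths and tendon, type IV forms the sheet of the basement membrane that wraps every fibre and capillary, and type VI forms beaded filaments that link that sheet to the fibrils around it. The chains are made mostly by fibroblasts and other mesenchymal cells rather than by the muscle fibres, and they are modified, folded, secreted, trimmed and cross-linked by enzymes devoted to this task.

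Values are log2 expression as deposited, and a difference of 1 on this scale is a doubling of signal. A level belongs to its own probe set, so levels of different genes are not set against each other. A gene was called dim where its mean over the 9 arrays was under 5. By this mark 10 collagen genes were not dim, namely Col1a1, Col1a2, Col3a1, Col5a1 and Col5a2 of the fibrillar group, Col4a1 and Col4a2 of the basement membrane group, and Col6a1, Col6a2 and Col6a3 of type VI. They were not admitted through a single group of mice, since the lowest group mean among them was 5.53. Col5a1, with a mean of 5.76, was the member nearest the mark from above, and Col5a3, a minor fibril chain with a mean of 4.94, was the nearest from below. The 32 dim members had means between 2.70 and 4.94. None of the 18 other members passed the mark, and Col22a1, a collagen of the muscle and tendon junction, came nearest with a mean of 4.87.

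**Figure D1:**
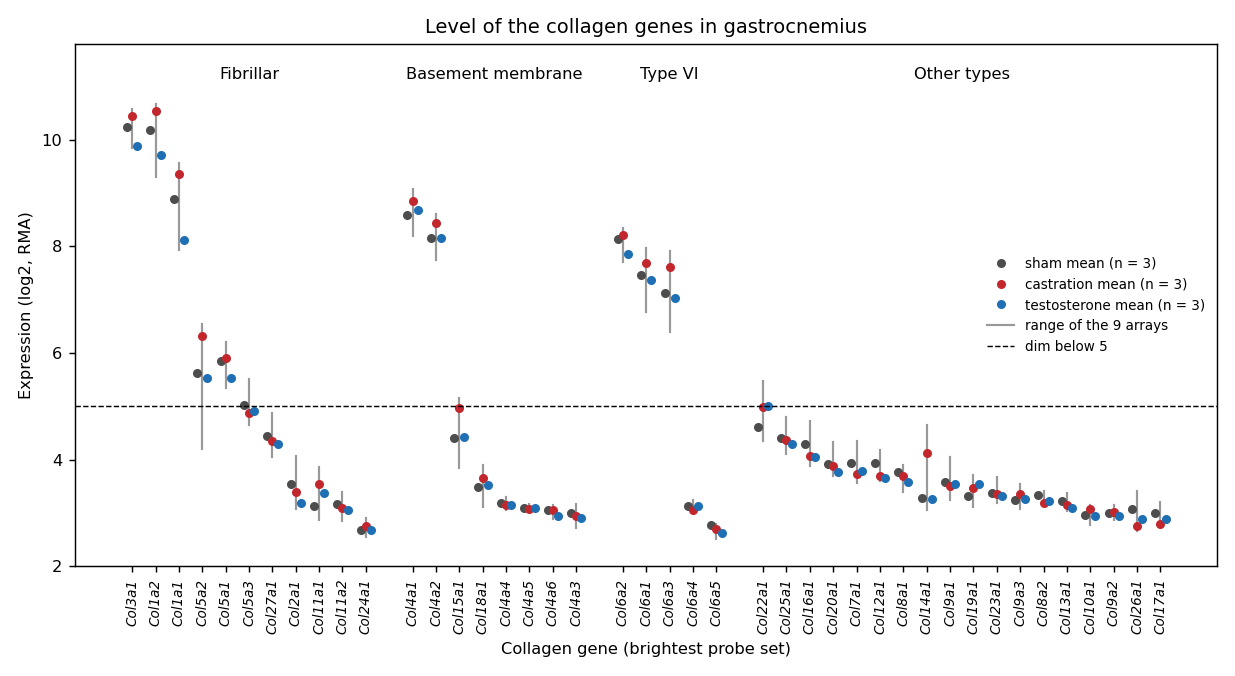
Each of the 42 collagen genes is on the horizontal axis, by group, and its expression (log2, RMA) is on the vertical axis, with coloured points for the mean of the 3 arrays of sham, castration and testosterone, a grey line for the range of the 9 arrays, and a dashed line at the mark of 5 for dim genes. The 10 genes above the line had group means of 5.53 or more, and heights of different genes are not comparable with each other.

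Both sham 2 and testosterone 2 stood apart before any comparison was made. The mean correlation of an array with the other 8 was 0.973 for sham 2 and 0.983 for testosterone 2, against 0.990 to 0.991 for the others. The label of the tissue was borne out by fast fibre genes, with skeletal actin Acta1 between 14.17 and 14.24 on every array and muscle creatine kinase Ckm between 13.96 and 14.03. On sham 2 the adipocyte marker score, the mean log2 deviation of 10 measured markers from their means over the arrays, was 0.86, and on testosterone 2 it was 1.02. Each collagen result below is therefore given with all arrays and without these 2 arrays.

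RefSeq promoter windows, the 250 bases before a transcription start, were matched by symbol for 33 of the 42 collagen genes and for 8 of the 10 that were not dim, and Col1a1 and Col5a2 had no entry. The windows of a type I and a type III chain are shown because these fibrillar genes had some of the largest differences below. They are from the GRCm38.p6 build, both on the plus strand, at chr6:4505368-4505617 for Col1a2 and at chr1:45311288-45311537 for Col3a1, and capitals mark the sequences CCAAT and TATAAA.
Col1a2: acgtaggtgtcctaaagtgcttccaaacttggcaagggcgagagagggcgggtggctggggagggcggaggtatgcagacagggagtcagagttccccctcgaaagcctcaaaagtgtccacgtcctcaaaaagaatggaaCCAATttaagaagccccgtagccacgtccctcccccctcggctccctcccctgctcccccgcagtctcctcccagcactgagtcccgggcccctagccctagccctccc
Col3a1: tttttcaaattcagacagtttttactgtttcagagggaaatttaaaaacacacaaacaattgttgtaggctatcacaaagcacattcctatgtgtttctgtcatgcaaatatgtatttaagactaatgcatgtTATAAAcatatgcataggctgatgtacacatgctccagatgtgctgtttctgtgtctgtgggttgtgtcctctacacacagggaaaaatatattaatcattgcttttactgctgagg
The Col1a2 window was rich in G and C, at 62%, and held 1 CCAAT and no TATAAA, while the Col3a1 window had a G and C content of 35.2% and held 1 TATAAA and no CCAAT. Both are letter matches and were not measured as bound sites. Searched on both strands and counted separately, CCAAT lay in 36.1% of the 36 collagen windows and in 33.8% of all 32851 RefSeq windows, TATAAA lay in 13.9% and 12.4%, and GGGCGG, the core of the GC box, lay in 58.3% and 32.7%. AGAACA, a hexamer found in androgen response elements, lay in 5.56% of the collagen windows and in 16.1% of all windows. The windows of Col4a1 and Col4a2 are not printed because each lies inside the transcript of the other: their start sites on chromosome 8 are 21 bases apart on opposite strands, so that the genes are read away from each other.

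Testosterone against castration asks what replacing the hormone did in castrated mice. All 10 collagen genes that were not dim had lower means with testosterone than with castration, with a median difference of −0.47, or −0.52 without sham 2 and testosterone 2. Among genes that were not dim, the 5 fibrillar ones had the lowest median of the groups, at −0.79 (−0.61 without both arrays). With dim members counted too, type VI had the lowest median, at −0.32, and the fibrillar group was at −0.22. Without both arrays these were −0.28 and −0.20. Col1a1 was 2.37-fold lower. Over the 5562 genes that were not dim the median difference was −0.0078, and 2881 of them were lower. In whole muscle, fewer cells that make a transcript and less of it per cell cannot be told apart.

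With all arrays, 0 of the 42 collagen genes passed limma's test at an adjusted p of 0.05, and 0 of all 18193 genes did (0%), with 633 genes at an unadjusted p under 0.05. The one-way analysis of variance without moderation also called 0 genes. At an unadjusted p under 0.05, 5 of the 42 collagen genes were lower (Col1a1, Col1a2, Col3a1, Col6a2 and Col14a1), against 1.84% of all genes, and 0 were higher, against 1.64%. The testosterone arrays lay wholly below the castration arrays in 11 of the 42, against 4.79% of all genes, and wholly above in 0, against 4.22%. Without sham 2 and testosterone 2, 1 collagen gene passed, Col1a1, against 0.148% of all genes, and 9 were lower at an unadjusted p under 0.05, against 2.90%. Over all 42 members 31 were lower, with a median of −0.084 (32 and −0.091 without both arrays), beside 9413 of all 18193 genes and a median of −0.0053.

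Type I collagen, the bulk of the fibrils, is made of the chains of Col1a1 and Col1a2. Array values are given in the order of replicates 1, 2 and 3. Col1a1 was at 9.39, 7.95 and 9.31 with sham, 9.42, 9.57 and 9.09 with castration, and 8.31, 7.92 and 8.11 with testosterone. All testosterone arrays lay below all castration arrays, and sham 2 was the only array of the other groups at the testosterone level. The difference from castration was −1.24 (SE 0.35, adjusted p = 0.873). Without sham 2 and testosterone 2 it was −1.15 (SE 0.14, adjusted p = 0.0473), a 2.21-fold lower level. Leaving out sham 2 alone, which is in neither of the groups compared but enters the shared estimate of spread, kept the difference at −1.24 and gave an adjusted p of 0.0318. Over its 20 alternative settings the adjusted p ran from 0.0318 to 1.00.

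Col1a2 was at 10.55, 9.39 and 10.62 with sham, 10.51, 10.68 and 10.43 with castration, and 10.11, 9.30 and 9.74 with testosterone. Its testosterone arrays were again all below the castration arrays, with testosterone 2 the lowest. The difference was −0.82 (SE 0.32, adjusted p = 1.00), and −0.61 without both arrays (adjusted p = 0.246). The other probe set of each type I gene that was not dim was lower as well, at −0.88 for Col1a1 and −1.19 for Col1a2.

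Type III collagen is a fibril former of loose and healing connective tissue, built from the chain of Col3a1 alone. Col3a1 was at 10.40, 9.91 and 10.39 with sham, 10.31, 10.57 and 10.46 with castration, and 9.84, 9.95 and 9.85 with testosterone. The castration and testosterone arrays did not overlap, and testosterone 2 lay with its group. The difference was −0.57 (SE 0.14, adjusted p = 0.635), the smallest p among the collagen genes in this comparison, and −0.61 without both arrays (adjusted p = 0.102).

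Type V chains are minor parts of the same fibrils and help to start them and set their width. Col5a1 was at 6.18, 5.35 and 6.01 with sham, 5.75, 6.20 and 5.75 with castration, and 5.51, 5.57 and 5.51 with testosterone. Col5a2 was at 6.38, 4.21 and 6.26 with sham, 6.17, 6.54 and 6.26 with castration, and 5.73, 5.43 and 5.43 with testosterone. In both genes every testosterone array was below every castration array, and sham 2 was below all others. The differences were −0.37 for Col5a1 and −0.79 for Col5a2 (adjusted p = 1.00 for each), and −0.39 and −0.74 without both arrays (adjusted p = 0.771 and 0.174). A further probe set of Col5a1 that was not dim gave 0.03, so that this gene's probe sets disagreed in sign. Of the 6 dim fibrillar members, 5 were lower and Col5a3 was higher at 0.05.

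**Figure D2:**
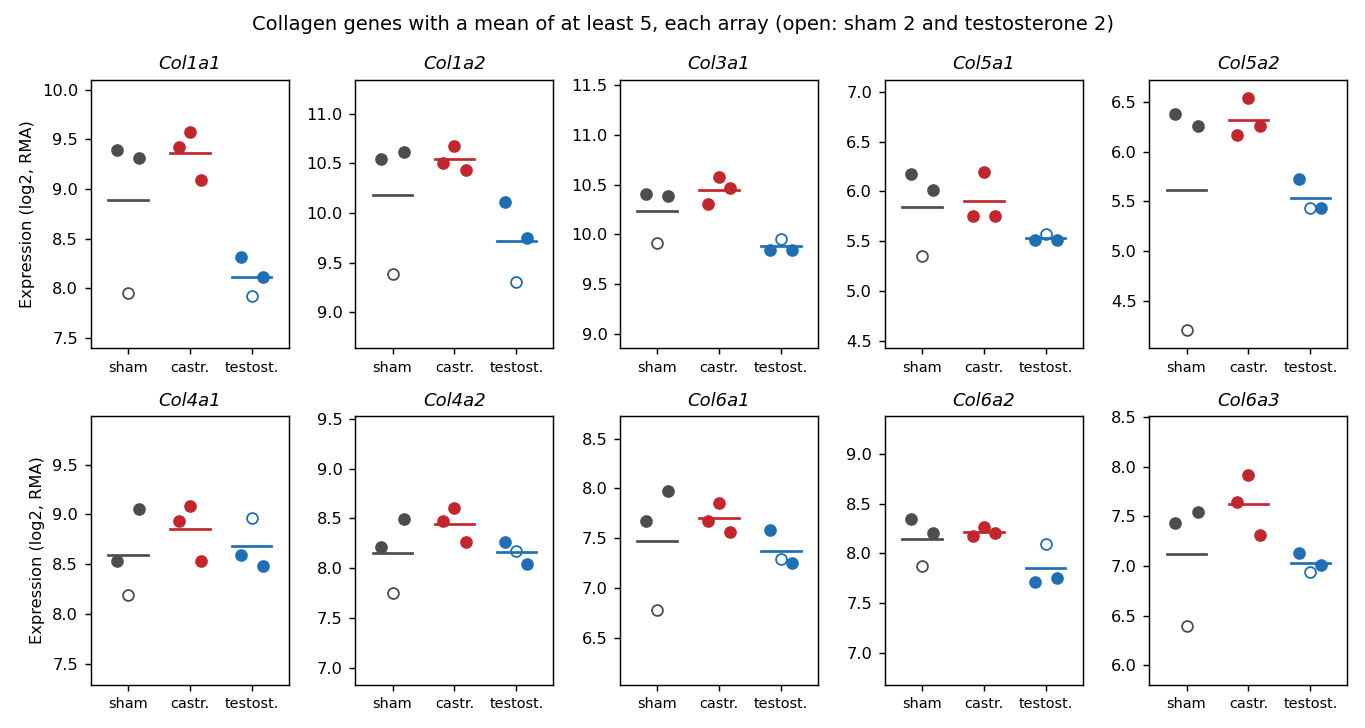
Expression (log2, RMA) of the 10 collagen genes that were not dim is shown for each array of sham, castration and testosterone, with a line for the mean of each group's 3 arrays and open circles for sham 2 and testosterone 2. The panels span the same number of log2 units but start at different values. The testosterone arrays lie below all castration arrays in 7 panels, and sham 2 lies below the other sham arrays in all 10.

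Type VI collagen, whose loss causes muscular dystrophies, is assembled from the chains of Col6a1, Col6a2 and Col6a3. Col6a1 was at 7.67, 6.78 and 7.97 with sham, 7.67, 7.85 and 7.57 with castration, and 7.58, 7.29 and 7.25 with testosterone. Testosterone 1 lay just above castration 3, so the groups overlapped, and the difference of −0.32 (adjusted p = 1.00) was −0.28 without both arrays. Col6a2 was at 8.35, 7.88 and 8.21 with sham, 8.18, 8.26 and 8.20 with castration, and 7.71, 8.09 and 7.75 with testosterone. Here testosterone 2 was the nearest to castration, and the difference went from −0.36 (adjusted p = 1.00) to −0.49 without both arrays (adjusted p = 0.114). Col6a3 was at 7.43, 6.40 and 7.54 with sham, 7.64, 7.91 and 7.31 with castration, and 7.13, 6.94 and 7.01 with testosterone. Its castration and testosterone arrays did not overlap, and the difference was −0.60 (adjusted p = 1.00), or −0.55 without both arrays (adjusted p = 0.540). A further probe set of Col6a2 that was not dim gave −0.38. The dim chain genes Col6a4 and Col6a5 lay between 2.51 and 3.24.

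The ubiquitous type IV chains, which build most basement membranes, were lower, with overlapping groups. Col4a1 was at 8.54, 8.19 and 9.05 with sham, 8.94, 9.09 and 8.53 with castration, and 8.60, 8.97 and 8.48 with testosterone. Col4a2 was at 8.21, 7.75 and 8.50 with sham, 8.47, 8.60 and 8.27 with castration, and 8.27, 8.17 and 8.05 with testosterone. The difference was −0.17 for Col4a1 and −0.29 for Col4a2 (adjusted p = 1.00 for each), and −0.31 and −0.29 without both arrays. A further probe set that was not dim gave −0.61 for Col4a1, so the size for this gene depended on the probe set. The chain genes Col4a3, Col4a4, Col4a5 and Col4a6, known from kidney and other special basement membranes, were dim, with means of 2.94 to 3.16.

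Col15a1 and Col18a1 encode the multiplexins, collagens that carry sugar chains and sit at the edge of basement membranes, and both were dim. Col15a1 was at 4.67, 3.84 and 4.67 with sham, 4.86, 5.16 and 4.89 with castration, and 3.94, 4.77 and 4.58 with testosterone. Castration was the highest group, with no overlap with either of the others. The difference was −0.53 (adjusted p = 1.00), and −0.71 without both arrays (adjusted p = 0.457). Col18a1 stayed between 3.12 and 3.90 on all arrays, with overlapping groups and a difference of −0.13, or −0.19 without both arrays.

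Among the 18 other members, which bind to fibril surfaces, span cell membranes or form short nets, the smallest p was that of Col14a1, a collagen that coats fibrils in tendon and skin. It was at 3.37, 3.06 and 3.37 with sham, 4.08, 4.66 and 3.63 with castration, and 3.47, 3.11 and 3.23 with testosterone. Every castration array was above every array of the other groups. The difference was −0.85 (SE 0.24, adjusted p = 0.851), and −0.77 without both arrays (adjusted p = 0.670). Col12a1, its close relative, was at 4.04, 4.17 and 3.59 with sham, 3.73, 3.60 and 3.74 with castration, and 3.67, 3.68 and 3.63 with testosterone. These groups overlapped, and the difference was −0.027, or −0.037 without both arrays. The other probe sets of Col12a1, all dim, gave −0.37, 0.061 and 0.091, so the probe sets of this gene disagreed. In the whole group 11 of 18 were lower, with a median of −0.036, and array values ran from 2.66 to 5.48.

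Probe sets other than the brightest were read as a check on these values. Of the 5 that were not dim (for Col1a1, Col1a2, Col5a1, Col4a1 and Col6a2), 4 had the sign of the brightest probe set in testosterone against castration, 5 in castration against sham and 3 in testosterone against sham. Counting dim ones too, 40 other probe sets of 27 collagen genes were listed, and 20, 25 and 21 of them had the sign of the brightest in those comparisons.

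Castration against sham asks what loss of the testes did, and here the values of the 10 collagen genes that were not dim rested on sham 2. With all arrays the 10 collagen genes that were not dim all had higher means with castration, with a median difference of 0.28, but 4351 of the 5562 genes that were not dim (78.2%) were also higher, with a median of 0.15. Without sham 2 and testosterone 2, 6 of the 10 were higher and the median was 0.0051, beside 0.014 for all genes that were not dim. Sham 2 was below the other sham arrays and below every castration array in all 10, while sham 1 and sham 3 lay near the castration values. How often sham 2 held this place among all genes was not counted.

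None of the 42 collagen genes passed limma's test here, with 0.838 as their lowest adjusted p. Of all genes, 0 passed (0%), with 859 at an unadjusted p under 0.05. Without both arrays 0 of the 42 passed, against 0.0989% of all genes. At an unadjusted p under 0.05, 2 were higher (Col14a1 and Col11a1, a minor fibril chain), against 3.09% of all genes. The castration arrays lay wholly above the sham arrays in 2 (Col14a1 and Col15a1), against 5.17%, and wholly below in 1 (Col6a5), against 3.72%. Without both arrays 1 was higher (Col14a1, against 2.72%) and 1 lower (Col8a2, a chain of vessel and corneal nets, against 2.65%). These shares are near those of all genes. Over the 42, 20 were higher and 22 lower, with a median of −0.012.

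The 4 genes with the smallest p among those that were not dim were Col6a3, at 0.50, Col4a2, at 0.30, Col3a1, at 0.21, and Col5a2, at 0.71. Without both arrays these differences were 0.14, 0.095, 0.052 and 0.0012. For type I collagen the differences were 0.48 for Col1a1 and 0.36 for Col1a2, and 0.0091 and −0.041 without both arrays. Among the remaining genes Col4a1 differed by 0.26, Col6a1 by 0.22, Col6a2 by 0.069 and Col5a1 by 0.056, and the last 3 were below 0 without both arrays, at −0.12, −0.064 and −0.19. Scaling mattered as well: after quantile normalisation was repeated over the deposited values, Col5a1 and Col6a2 were lower with castration even with all arrays.

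Col14a1 kept most of its castration difference without sham 2 and testosterone 2. It was higher than in sham by 0.85 (SE 0.24, adjusted p = 0.838), or by 0.75 without both arrays (adjusted p = 0.763), and it was 1.80-fold higher with all arrays at a dim level. Col15a1 was higher by 0.57, and by 0.29 without both arrays, with adjusted p of 0.838 and 0.967. Col12a1 was at −0.25, and at −0.13 without both arrays, while its other probe sets gave 0.36, 0.048 and −0.066 with all arrays. Of the 32 dim members, 15 had their highest value on sham 2, the array on which the 10 brighter genes were the lowest of their group. The same count was not made over all dim genes, and sham 2 had the highest array median of all arrays. Whether this place of sham 2 was particular to collagen genes was therefore not tested.

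**Figure D3:**
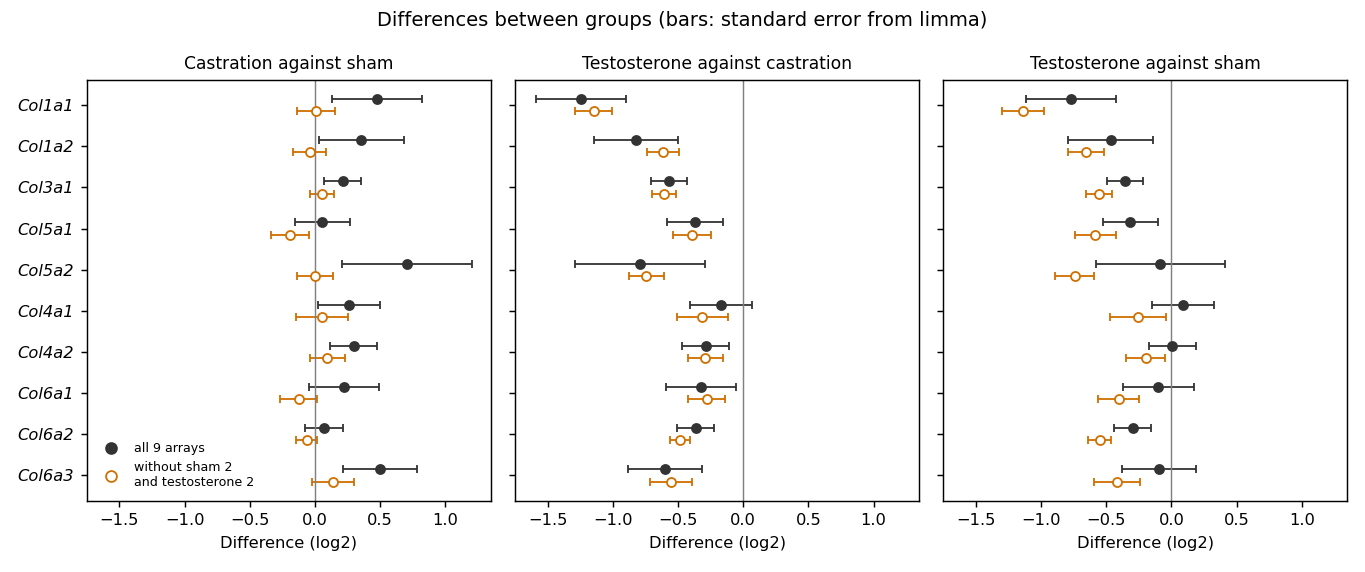
The difference between group means (log2) is on the horizontal axis for the 10 collagen genes that were not dim, in 3 panels for the 3 comparisons, with bars for the standard error from limma. Filled points use all 9 arrays and open points leave out sham 2 and testosterone 2: without these arrays, castration against sham lies between −0.19 and 0.14, testosterone against castration stays below 0 in all 10 genes, and testosterone against sham is below 0 in all 10, where Col4a1 and Col4a2 were above 0 with all arrays.

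Testosterone against sham asks how replaced mice compared with mice that kept their testes. With all arrays 8 of the 10 collagen genes that were not dim were lower with testosterone, with a median difference of −0.20, although the 5562 genes that were not dim had a median of 0.14. Without sham 2 and testosterone 2 all 10 were lower, with a median of −0.55 beside 0.026. In 8 of the 10, all testosterone arrays lay below both sham 1 and sham 3, and in 6 of the 10 sham 2 lay below all testosterone arrays. Neither order was counted over all genes. Without both arrays the testosterone arrays lay wholly below sham in 8 of the 10, against 527 of the 5562 genes that were not dim. This comparison shares its testosterone arrays with the first and its sham arrays with the second, so the comparisons are not independent of each other.

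None of the 42 passed limma's adjusted p, the smallest being 0.780 with all arrays and 0.998 without both; 0 of all genes passed in either fit (0%), with 791 and 569 at an unadjusted p under 0.05. At an unadjusted p under 0.05, 1 of the 42 was lower with all arrays (Col3a1), against 1.70% of all genes. Without both arrays 10 of the 42 were lower, 8 of them among the 10 that were not dim, against 1.62%. With all arrays the testosterone arrays lay wholly above sham in 1 member (Col19a1), against 2.83%, and wholly below in 2 (Col2a1 and Col6a5, both dim), against 3.64%.

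Of the 4 genes with the smallest p among those that were not dim, Col3a1 was at −0.36, Col1a1 at −0.77, Col6a2 at −0.30 and Col5a1 at −0.31. Without both arrays these were −0.55, −1.14, −0.55 and −0.58, so that Col1a1 had the largest difference of these 4 in both fits. Col1a2 went from −0.47 to −0.66, Col5a2 from −0.085 to −0.74, Col6a1 from −0.099 to −0.40 and Col6a3 from −0.096 to −0.41. Sham 2 was the lowest of the sham arrays in each of these genes. The type IV genes had values on both sides of 0, with Col4a1 at 0.089 and Col4a2 at 0.0081 with all arrays, and −0.26 and −0.20 without both. With all arrays, a further probe set that was not dim had the opposite sign for Col4a1, at −0.53, and for Col5a1, at 0.080. Among the dim genes, Col14a1 did not separate the groups (−0.00048, or −0.024 without both arrays). Col15a1 was at 0.034 and then −0.42, Col18a1 at 0.047 and then −0.20, and Col12a1 at −0.27 and then −0.17. With all arrays the other probe sets of Col12a1 gave −0.018, 0.11 and 0.026.

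The array patterns of the groups can be set side by side as mean deviations. Averaged over the 5 fibrillar genes that were not dim, the deviation from the gene means was 0.44, −0.78 and 0.38 on the sham arrays, 0.29, 0.57 and 0.26 on the castration arrays, and −0.24, −0.50 and −0.41 on the testosterone arrays. For the 3 type VI genes it was 0.20, −0.60 and 0.29, then 0.22, 0.39 and 0.08, and then −0.14, −0.17 and −0.28. Sham 2 was the lowest array for both, and the 3 testosterone arrays came next. For Col4a1 and Col4a2 together it was −0.11, −0.51 and 0.29, then 0.23, 0.36 and −0.08, and then −0.05, 0.09 and −0.22, so here sham, castration and testosterone overlapped. Castration 2 was the highest array in 8 of the 10 genes.

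The scores of fibroblast and tendon markers were lowest on sham 2, and so were those of endothelial and of smooth muscle and pericyte markers. Of single genes, 4 of 11 fibroblast markers and 7 of 9 tendon markers had their lowest value on sham 2. Testosterone 2 held the lowest value of 4 fibroblast markers and 0 tendon markers. How often sham 2 was the lowest array among all genes was not counted. The list of fibroblast markers without collagens had 11 of 12 genes measured, 9 of them not dim, and its array score ran from −0.45 to 0.22 in sham, with sham 2 lowest, from 0.03 to 0.21 in castration and from −0.20 to 0.03 in testosterone. Of its 11 genes, 7 were lower with testosterone than with castration, with a median of −0.12, and 9 were lower without both arrays, with a median of −0.14. The tendon list had 9 genes, 6 of them not dim, with scores of −0.67 to 0.23 in sham, 0.15 to 0.40 in castration and −0.24 to 0.03 in testosterone. In it 7 of 9 were lower with testosterone than with castration, with a median of −0.35, or −0.31 without both arrays. The tendon factors Scx and Mkx were dim, with means of 3.09 and 2.92, while tenomodulin, Tnmd, was at 6.57, 4.45 and 6.65 with sham, 6.94, 7.11 and 6.49 with castration, and 6.57, 5.34 and 5.70 with testosterone. Tnmd had the largest difference of the list, at −0.98. Thbs4, also not dim, had a higher mean with testosterone. It was at 8.36, 8.50 and 8.72 with castration and 8.78, 8.49 and 8.66 with testosterone, with overlapping arrays. Both lists share genes with the list of fibril partners below (Dcn, Lum and Fmod). Their part in the collagen result was not tested.

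Adipocyte markers, 10 measured and 5 not dim, scored −0.28, 0.86 and 0.19 on the sham arrays, −0.59, −0.55 and −0.70 on the castration arrays, and 0.50, 1.02 and −0.46 on the testosterone arrays. Within the testosterone group these scores thus ran from below 0 to the highest of all arrays. Macrophage and lymphocyte markers, 15 measured and 4 not dim, reached 0.97 on testosterone 2 and were at most 0.22 on every sham and castration array. Epidermal markers, 7 measured and 1 not dim, scored 0.18, 0.66 and −0.11 on the sham arrays, so the high score was that of sham 2. They were below 0 on all castration and testosterone arrays. Endothelial markers, 9 of 10 not dim, ran from −0.50 to 0.05 in sham, 0.04 to 0.33 in castration and −0.17 to 0.10 in testosterone. Smooth muscle and pericyte markers ran from −0.39 to 0.16 over all arrays, Schwann cell markers from −0.41 to 0.41, and fast fibre markers from −0.04 to 0.05. The part of these cells in the collagen values was not tested.

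**Figure D4:**
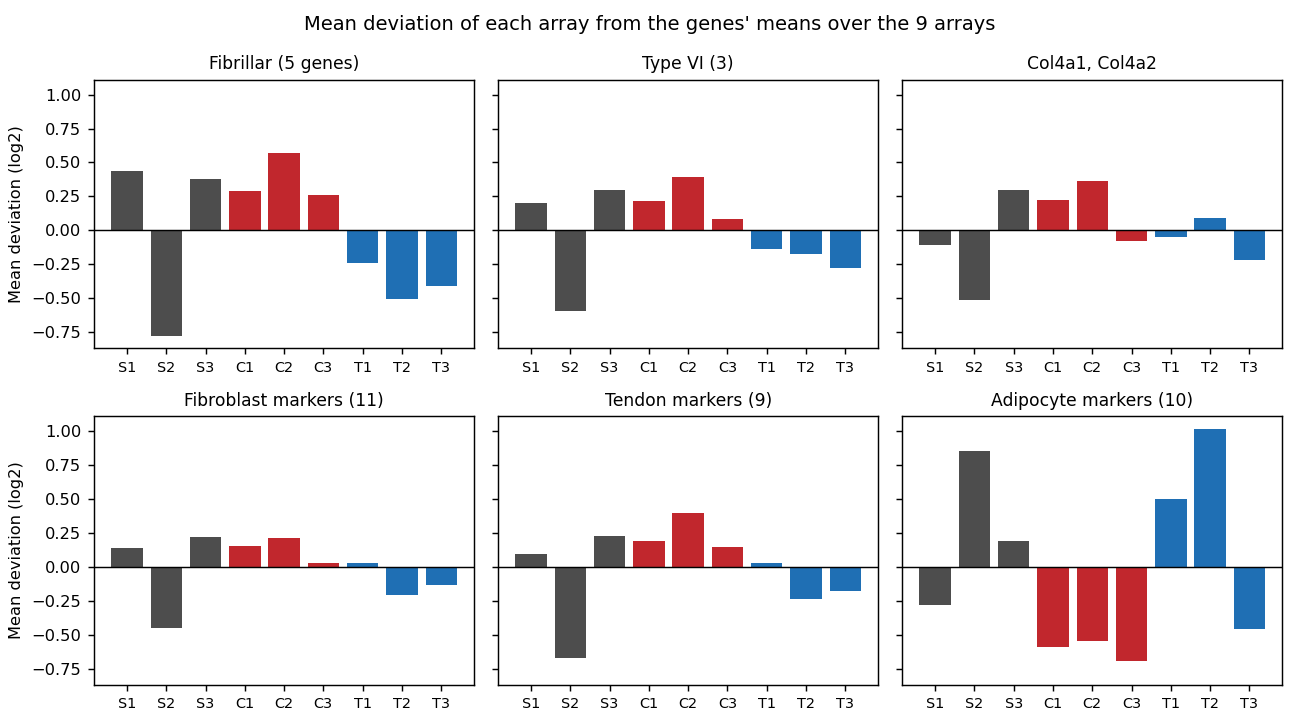
Bars give, for each array (S sham, C castration, T testosterone, with the replicate number), the mean log2 deviation of the listed genes from their means over the 9 arrays, in 6 panels for fibrillar genes, type VI genes, Col4a1 with Col4a2, and the fibroblast, tendon and adipocyte markers. Fibrillar genes were between −0.50 and −0.24 on the testosterone arrays and −0.78 on sham 2, and adipocyte markers were highest on sham 2 and testosterone 2.

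The genes that build, trim, bind and degrade collagen were read from 7 companion lists, in which none passed limma's adjusted p in testosterone against castration with all arrays or without both. Fibril partners, which sit on fibrils or organise them, were lower in 9 of 10 genes, with a median of −0.45. The smallest p-values were those of Sparc, a collagen chaperone of the matrix, at −0.66, lumican (Lum), a proteoglycan of fibril spacing, at −1.52, and periostin (Postn), at −0.57 (adjusted p = 0.754, 1.00 and 1.00). Lum was at 6.91, 4.84 and 6.22 with sham, 7.04, 6.91 and 7.01 with castration, and 5.94, 4.69 and 5.77 with testosterone. Its testosterone arrays lay below all castration arrays, and its lowest values were those of testosterone 2 and sham 2, as for Col1a2. Without both arrays it was at −1.13.

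Chain modification and folding genes were lower in 14 of 19, with a median of −0.066. The smallest p-values were those of Crtap, part of the prolyl 3-hydroxylation complex, at −0.59, Serpinh1, the collagen chaperone of the endoplasmic reticulum, at −0.38, and Plod2, a lysyl hydroxylase, at −0.54. Basement membrane partners were lower in 9 of 10 with a median of −0.17, with the laminin chain gene Lamb2 at −0.40, nidogen 2 (Nid2) at −0.21 and the laminin chain gene Lama4 at −0.28. Breakdown and uptake genes were lower in 8 of 13 with a median of −0.12, with the protease Fap at −0.42, the collagen uptake receptor Mrc2 at −0.27 and cathepsin K (Ctsk) at −0.22. Fap, Mrc2 and Ctsk were dim, with every array value under 5. The breakdown list also holds the protease inhibitor genes Timp1, Timp2, Timp3 and Timp4, so its count has no single meaning for breakdown. The lists for synthesis and for breakdown both had more lower than higher members, as did all genes, of which 51.7% were lower.

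Propeptide removal and cross-linking genes were lower in 7 of 10 with a median of −0.11, but the smallest p was that of transglutaminase Tgm2, higher at 0.31, followed by the procollagen proteinase Bmp1 at −0.22 and its enhancer Pcolce2 at −0.14. Collagen receptors were split, with 4 of 7 higher and a median of 0.036, and Itgb1, Itga2 and Ddr2 were at −0.36, −0.080 and −0.15. Signal genes were also split, with 5 of 9 higher and a median of 0.067. Tgfb3, a ligand that drives matrix genes, was at −0.49, while Smad3, a carrier of its signal to the nucleus, was at 0.38 and the growth factor gene Pdgfa was at 0.38. Without sham 2 and testosterone 2 the medians were −0.41 for fibril partners, −0.14 for folding, −0.18 for basement membrane partners, −0.11 for breakdown, −0.057 for propeptide removal and cross-linking, −0.058 for receptors and −0.018 for signals. The last 2 had been above 0 with all arrays.

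Castration against sham was read from the same lists. With castration 8 of 10 fibril partners were higher, with a median of 0.21, beside 78.2% of all genes that were not dim. The smallest p-values were those of Postn at 0.57, Bgn at 0.49 and Fmod at 0.63, and without both arrays 5 of 10 were higher with a median of −0.0077. Chain modification and folding genes were higher in 15 of 19, with a median of 0.15 and the smallest p for the prolyl hydroxylase gene P4ha1, at 0.66, and in 13 of 19 without both arrays, with a median of 0.042. Of the remaining lists, castration was higher in 8 of 10 genes of propeptide removal and cross-linking (median 0.089), 8 of 10 basement membrane partners (0.18), 7 of 9 signals (0.19), 6 of 13 breakdown and uptake genes (−0.0018) and 4 of 7 receptors (0.016). Without both arrays these counts were 7, 5, 4, 5 and 3. With testosterone 8 of 10 fibril partners were lower than in sham, with a median of −0.079, and without both arrays 10 of 10 were lower with a median of −0.36. Sparc, with the smallest p of that list, was at −0.46 and then −0.50. None of these genes passed limma's adjusted p.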

How the data were processed

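Affymetrix arrays of gastrocnemius RNA were used, with groups and replicate numbers from the sample titles. The authors deposited log2 values per probe set. Per the submitters' processing notes these were made with RMA (version: not given in the sources used here), which adjusts for background, brings the arrays to a common distribution and combines the probes of a set, so 1 unusual array can shift the rest. Arrays are independent biological replicates per the labels, and p-values set a difference between groups against the spread between these pools. Precision is limited by the number of arrays.

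Of 45101 probe sets in the table, 64 were controls. GEO's annotation of the platform gives 34945 a single gene, gives 932 several and does not list 9160 others. For 204 of the probe sets with a single gene, the gene identifier found no match in the RefSeq gene table. The brightest probe set listed to a gene alone stood for it, which gave 18193 genes. The test was limma (version 3.58.1, lmFit and eBayes, run in R 4.3.3) on the 9 arrays with group as the only term, two-sided, adjusted by Benjamini-Hochberg over the 18193 genes at a threshold of 0.05. Lists have counts and medians and no test of their own. The members, lists and tests were chosen with earlier results of these data known. A fixed set of 14 collagen genes was named with array values whatever it showed, with any other collagen gene that passed, the 4 with the smallest p among those with a mean of at least 5, and up to 3 genes per companion list. Alternatives were a replicate block, only the groups compared, repeated quantile normalisation, median centring, genes with a mean of at least 5, probe sets averaged within a gene, probe sets prone to cross-hybridisation left out, an intensity trend with robust variances, analysis of variance without moderation, array weights, and arrays left out. The median over the 10 brighter collagen genes was chosen after seeing the data. Motifs were counted in RefSeq windows of GRCm38.p6. The fit was tested on simulated data with independent normal noise for each gene, for testosterone against castration. There 22 of 50 planted differences of 0.5 and 48 of 50 of 2 passed, with 7 false calls. The simulation held no array that stood apart, so it cannot show how the fit behaves with arrays such as sham 2.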

Additional observations from a re-analysis of the deposited data

How the results depend on the processing

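Testosterone against castration kept its sign for all 14 collagen genes described by array under each of the alternatives run, and the median of the 10 brighter genes stayed between −0.52 and −0.40 with arrays left out. The count of collagen genes passing limma's test there was 0 with all arrays, 1 with array weights (Col1a1, adjusted p = 0.0409), 1 without sham 2 and testosterone 2, and 0 to 1 with each array left out, the 1 being without sham 2. In the other comparisons it was 0 under every alternative. With genes of a mean of at least 5 alone, the medians of all and of fibrillar collagen genes were 0.28 and 0.36 in castration against sham, −0.47 and −0.79 in testosterone against castration, and −0.20 and −0.36 in testosterone against sham, since the dim members are then gone. The fibrillar median in testosterone against sham was −0.42 without both arrays. This was the lower end of its range of −0.42 to −0.15, which covers that fit and those with 1 array left out. In castration against sham the sign turned with repeated quantile normalisation for Col5a1 (−0.13) and Col6a2 (−0.062), with the mean of probe sets for Col12a1 (0.023), and with array weights, which gave sham 2 a weight of 0.164, for Col5a1 (−0.27), Col5a2 (−0.021), Col18a1 (−0.041) and Col6a2 (−0.11). Without both arrays it turned for Col1a2 (−0.041), Col5a1 (−0.19), Col18a1 (−0.0066), Col6a1 (−0.12) and Col6a2 (−0.064). In testosterone against sham it turned with repeated quantile normalisation for Col4a1 (−0.014), Col4a2 (−0.11) and Col14a1 (0.020), with median centring for Col14a1 (0.034), with the mean of probe sets for Col4a1 (−0.22) and Col18a1 (−0.023), with array weights for Col4a2 (−0.080), Col15a1 (−0.29) and Col18a1 (−0.26), and without both arrays for Col4a1 (−0.26), Col4a2 (−0.20), Col15a1 (−0.42) and Col18a1 (−0.20). Arrays were left out 1 at a time, and sham 2 and testosterone 2 also together. Over these fits, differences whose sign could turn ran, in castration against sham, from −0.041 to 0.57 for Col1a2, −0.19 to 0.22 for Col5a1, −0.0066 to 0.34 for Col18a1, −0.12 to 0.47 for Col6a1 and −0.064 to 0.17 for Col6a2. In testosterone against sham they ran from −0.79 to 0.30 for Col5a2, −0.26 to 0.32 for Col4a1, −0.20 to 0.18 for Col4a2, −0.42 to 0.28 for Col15a1, −0.20 to 0.21 for Col18a1, −0.45 to 0.15 for Col6a1, −0.46 to 0.11 for Col6a3 and −0.10 to 0.080 for Col14a1. The cause of these turns was not tested. The fit with a replicate block called 0 collagen genes in each comparison and put 4 in place of 5 below an unadjusted p of 0.05 in testosterone against castration. Deviations of samples of the same number from their group means had correlations of −0.49 to 0.27. Deviations from a mean of 3 arrays depend on each other. These values therefore cannot decide whether arrays of the same number shared more than a label. Over all genes the block gave 660 against 633 at that mark in testosterone against castration and 555 against 791 in testosterone against sham. Of the 42 members, 32 were dim, and 3 arrays a group limit the precision.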
